A study of Mus musculus with 6 samples.

Results

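Chemokines are small secreted or membrane-held proteins that guide the movement of cells, and chemokine receptors are the G protein-coupled receptors through which cells sense them. The genes were chosen by symbol: those beginning with Ccl, Cxcl, Ccr or Cxcr and a number, together with Cx3cl1 and Xcl1, leaving out Ccl27a and Ccl27b. This gave 54 of the 24421 gene symbols in the tables. Levels are given as CPM, a gene's count divided by its library size in megacounts after adjustment by the trimmed mean of M-values (TMM). Of the 54 genes, 20 averaged at least 1 CPM over the 6 libraries and are called expressed here, 30 had some counts but a mean under 1 CPM, and 4 had 0 counts in every library.

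The tissue, which the labels call whole embryo, was taken from C57BL/6N mice on embryonic day 9.5. There were 3 libraries from homozygous knockouts of Lphn2 (Lphn2 KO) and 3 from wild type (WT). Lphn2, now named Adgrl2, is the gene of latrophilin-2, a cell-surface receptor of the adhesion class that the series title links to the heart. Libraries were made with the Lexogen QuantSeq kit, which reads the 3′ ends of polyadenylated RNA. The labels give neither the deleted part of the gene, nor the number of embryos per library, nor the litters, so the p-values cover only how far these samples vary, and that variation may be technical.

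In the embryo, Cxcl12 acting through Cxcr4 directs blood vessels, blood-forming cells, germ cells and neurons, and Ackr3 takes up Cxcl12 without classical G protein signalling. In the pregnant uterus, where maternal leukocytes lie beside the conceptus, chemokines recruit monocytes, natural killer cells and neutrophils. Ligands are divided by the spacing of their first cysteines into the CC, CXC, XC and CX3C families, and most receptors bind several ligands of 1 family.

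Total counts lay between 14476809 and 23887717 in Lphn2 KO and between 18352150 and 36213611 in WT libraries. Adgrl2 itself was read at 5.49, 1.67 and 2.78 CPM in Lphn2 KO and at 10.9, 7.56 and 15.96 CPM in WT libraries. Its groups did not overlap, but the difference missed the threshold (log2 fold change -1.78 ± 0.50 SE, edgeR adjusted p = 0.194). It was called lower with DESeq2 (adjusted p = 0.0203) and without Lphn2 KO replicate 1 (log2 fold change -2.36, edgeR adjusted p = 0.0442), in a range over the alternatives of 0.0203 to 0.574. The 3′ tags may lie outside the deleted part, so they do not check the genotype. Lphn2 KO replicate 1 stood apart from the other 2 knockouts. Across 13848 genes its log2 values had r = 0.970 with WT replicate 1, against 0.943 and 0.945 with Lphn2 KO replicates 2 and 3, which had r = 0.982 with each other (genes are not independent replicates). Transcripts of the maternal decidua were abundant in every library, which goes against material of the embryo alone: Prl8a2, decidual prolactin-related protein, stood at 1279 to 5335 CPM in Lphn2 KO and at 14989 to 28746 CPM in WT libraries. Of 10 decidual markers, 3, among them Prl8a2, had a negative and 7 a positive log2 fold change. Summed markers of the embryonic heart reached only 4.53 to 17.6 CPM in Lphn2 KO and 38.0 to 264 CPM in WT libraries. In such bulk samples fewer cells of a type and less RNA per cell cannot be told apart.

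No member was called higher or lower in Lphn2 KO over WT among all genes tested (edgeR quasi-likelihood test, Benjamini-Hochberg adjusted p under 0.05), nor with limma-voom. Over all 13848 genes tested, 0% were called higher and 0.0505% lower by either tool. At an unadjusted p under 0.05, 5 of the 20 expressed members were higher and 3 lower, against 8.68% and 6.86% of all genes. With DESeq2, Cxcl14 and Cx3cl1 were called higher and Cxcl12 lower, where 3.49% and 2.87% of genes were called. Without Lphn2 KO replicate 1, edgeR called Cxcl14 and Cx3cl1 higher and no member lower, where 1.77% and 3.27% of genes were called. Of the 20 expressed members, 14 had a positive and 6 a negative log2 fold change, with a median of 0.33, beside a median of -0.04 over all genes tested.

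All 3 Lphn2 KO values lay above all 3 WT values in Cxcl14, Cx3cl1, Ccr2 and Ccl1, against 12.1% of all genes tested. Ccl1 reached a mean of 1 CPM only through its knockout values (means 1.64 CPM in Lphn2 KO and 0.37 CPM in WT libraries). Its place among these genes is therefore partly set by that cut. No expressed member had all Lphn2 KO values below all WT values, against 9.39% of all genes. The number below WT became 2 without WT replicate 2 (Cxcl12 and Cxcr4), 1 without WT replicate 3 (Ccl25), 3 without Lphn2 KO replicate 1 (Ccl25, Cxcr2 and Cxcr4) and 1 without Lphn2 KO replicate 3 (Cxcl16). Above WT, Ccl2 and Ccl6 joined without WT replicate 1, and Ccl4 without WT replicate 2. Ccl2, Ccl7 and Ccl8 joined without Lphn2 KO replicate 1. Ccl1 fell under 1 CPM without any 1 of the Lphn2 KO libraries. Groups separate more easily with a library fewer, and no share of all genes was taken for these subsets.

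**Figure D1:**
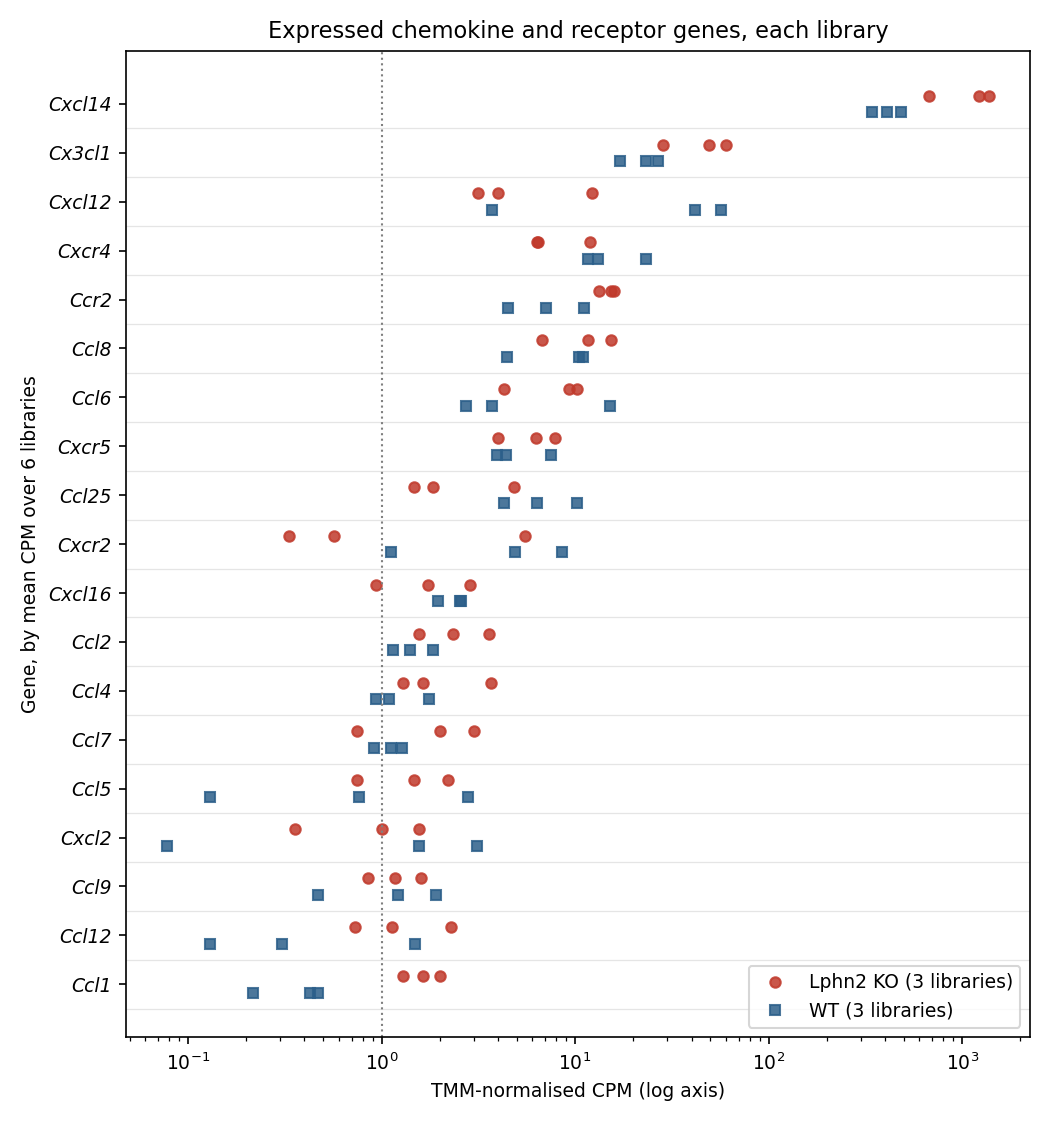
CPM of the expressed members described (log axis) in each library, Lphn2 KO as red circles above WT as blue squares, with a dotted line at 1 CPM. Of the genes drawn, only in Cxcl14, Cx3cl1, Ccr2 and Ccl1 do the red circles lie to the right of every blue square, and in no row do they all lie to the left.

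Cxcl14, a CXC ligand made constitutively by many epithelia and by stroma, was the most heavily counted member, on a scale with no length correction. It stood at 671, 1219 and 1371 CPM in Lphn2 KO replicates 1, 2 and 3 and at 410, 483 and 342 CPM in WT replicates 1, 2 and 3. All 3 knockout libraries were higher, replicate 1 the least so. The means were 1087 ± 368 CPM in Lphn2 KO and 412 ± 70.7 CPM in WT (SD, n = 3 each), with a log2 fold change of 1.40 ± 0.30 (SE) that missed the threshold (edgeR adjusted p = 0.166). The call was made by DESeq2 (adjusted p = 0.000517) and, once Lphn2 KO replicate 1 was left out, by edgeR (log2 fold change 1.65, edgeR adjusted p = 0.0237), within a range of adjusted p of 0.000517 to 0.574 over the alternatives. Summed over all members, the level was 798 to 1530 CPM in Lphn2 KO and 485 to 595 CPM in WT libraries. With Cxcl14 left out the sums overlapped, at 127 to 159 CPM in Lphn2 KO and 112 to 180 CPM in WT. The gene lies on mm10 chromosome 13, 56288643 to 56296551, minus strand.

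The 250 bases before the start site are shown for Cxcl14 and Cx3cl1, the members called higher with DESeq2, and for Cxcl10, a target of interferon that stayed under 1 CPM (RefSeq, GRCm38.p6; chr13:56296552-56296801 minus strand, chr8:94771930-94772179 plus strand and chr5:92348890-92349139 minus strand). Capitals mark matches, on either strand, to the interferon motifs GAS (TTCNNNGAA) and ISRE (GAAA, any 2 bases and GAAA) and to the kappaB motif.
Cxcl14: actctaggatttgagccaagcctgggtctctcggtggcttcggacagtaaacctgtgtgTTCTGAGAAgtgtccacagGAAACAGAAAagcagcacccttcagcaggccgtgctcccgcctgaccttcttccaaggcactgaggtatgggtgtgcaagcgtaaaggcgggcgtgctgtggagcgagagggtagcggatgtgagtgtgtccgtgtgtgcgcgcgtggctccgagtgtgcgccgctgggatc
Cx3cl1: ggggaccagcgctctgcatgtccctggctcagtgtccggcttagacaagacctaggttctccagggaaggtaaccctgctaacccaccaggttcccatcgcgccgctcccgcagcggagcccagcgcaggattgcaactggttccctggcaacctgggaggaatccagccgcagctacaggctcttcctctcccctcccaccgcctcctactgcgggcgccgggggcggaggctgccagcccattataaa
Cxcl10: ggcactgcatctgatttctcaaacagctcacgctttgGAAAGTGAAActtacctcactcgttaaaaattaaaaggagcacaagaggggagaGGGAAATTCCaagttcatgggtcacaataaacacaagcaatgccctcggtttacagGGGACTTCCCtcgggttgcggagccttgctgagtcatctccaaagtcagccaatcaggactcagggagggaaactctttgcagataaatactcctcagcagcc

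The Cxcl14 window held a palindromic GAS match at -191 to -183 from the start and an ISRE match at -172 to -163. The Cxcl10 window held an ISRE match at -213 to -204 and kappaB matches at -159 to -150 and -103 to -94, and the Cx3cl1 window held none of these letters. Of all 27025 genes in the RefSeq table, 8.13% had a GAS, 3.46% an ISRE and 4.46% a kappaB match in such a window. Of the 20 expressed members 13 had a window, in which Cxcl14 alone matched GAS or ISRE, and Ccl9 and Cxcl2 matched kappaB. No match overlapped another motif in the windows printed, and a match describes letters, not binding.

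Cx3cl1, or fractalkine, is a chemokine held on the cell surface by a mucin stalk and released by cleavage. It stood at 28.5, 49.2 and 59.9 CPM in Lphn2 KO and at 23.3, 26.8 and 17.1 CPM in WT replicates 1, 2 and 3. The groups did not overlap, although Lphn2 KO replicate 1 and WT replicate 2 nearly met. The log2 fold change was 1.04 ± 0.31 (SE, edgeR adjusted p = 0.209), and 1.29 without Lphn2 KO replicate 1 (edgeR adjusted p = 0.0431, range over the alternatives 0.0431 to 0.581). With DESeq2 the adjusted p was 0.0482. Its receptor Cx3cr1, found on monocytes and microglia, stood at 4.98, 4.87 and 8.13 CPM in Lphn2 KO and at 10.6, 1.89 and 15.4 CPM in WT libraries, so that its groups overlapped (log2 fold change -0.64 ± 0.67 SE, edgeR adjusted p = 0.678). Cxcl16, the other chemokine with a membrane anchor, averaged 1.84 ± 0.96 CPM in Lphn2 KO and 2.35 ± 0.35 CPM in WT libraries (SD, n = 3 each), and its receptor Cxcr6 stayed under 0.3 CPM in each library.

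Cxcl12, the ligand that retains and guides progenitors and vessels, spanned a wider range within WT than the distance between the group means. It stood at 12.2, 3.13 and 3.99 CPM in Lphn2 KO replicates 1, 2 and 3 and at 41.9, 3.72 and 56.5 CPM in WT replicates 1, 2 and 3. WT replicate 2 lay among the knockouts, and the other 2 WT libraries lay above all of them. The log2 fold change was -2.39 ± 0.95 (SE, edgeR adjusted p = 0.297). It was called lower with DESeq2 (adjusted p = 0.0374, range over the alternatives 0.0374 to 0.656), and the log2 fold change ran from -3.24 without Lphn2 KO replicate 1 to -1.80 without WT replicate 3. Cxcl12 lies on chromosome 6, 117168535 to 117181367.

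Cxcr4, the signalling receptor of Cxcl12, stood at 12.0, 6.33 and 6.42 CPM in Lphn2 KO and at 13.1, 11.6 and 23.2 CPM in WT libraries. Lphn2 KO replicate 1 matched the lower WT values, and replicates 2 and 3 lay below them (log2 fold change -0.95 ± 0.39 SE, edgeR adjusted p = 0.306). Ackr3, the scavenging receptor of Cxcl12, had the opposite sign, at 56.7, 120 and 104 CPM in Lphn2 KO and at 39.6, 55.1 and 55.3 CPM in WT libraries. All knockout values of Ackr3 were higher, replicate 1 only just (log2 fold change 0.91 ± 0.30 SE, edgeR adjusted p = 0.239). Without that replicate Ackr3 was called higher, with a log2 fold change of 1.17 (edgeR adjusted p = 0.0386, range over the alternatives 0.0386 to 0.609). Summed heart and neural markers of the embryo were lower in every Lphn2 KO than in every WT library, with neural sums of 7.33 to 8.16 CPM in Lphn2 KO and 17.9 to 58.9 CPM in WT libraries. Their part in the values of Cxcl12 and Cxcr4 was not tested.

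**Figure D2:**
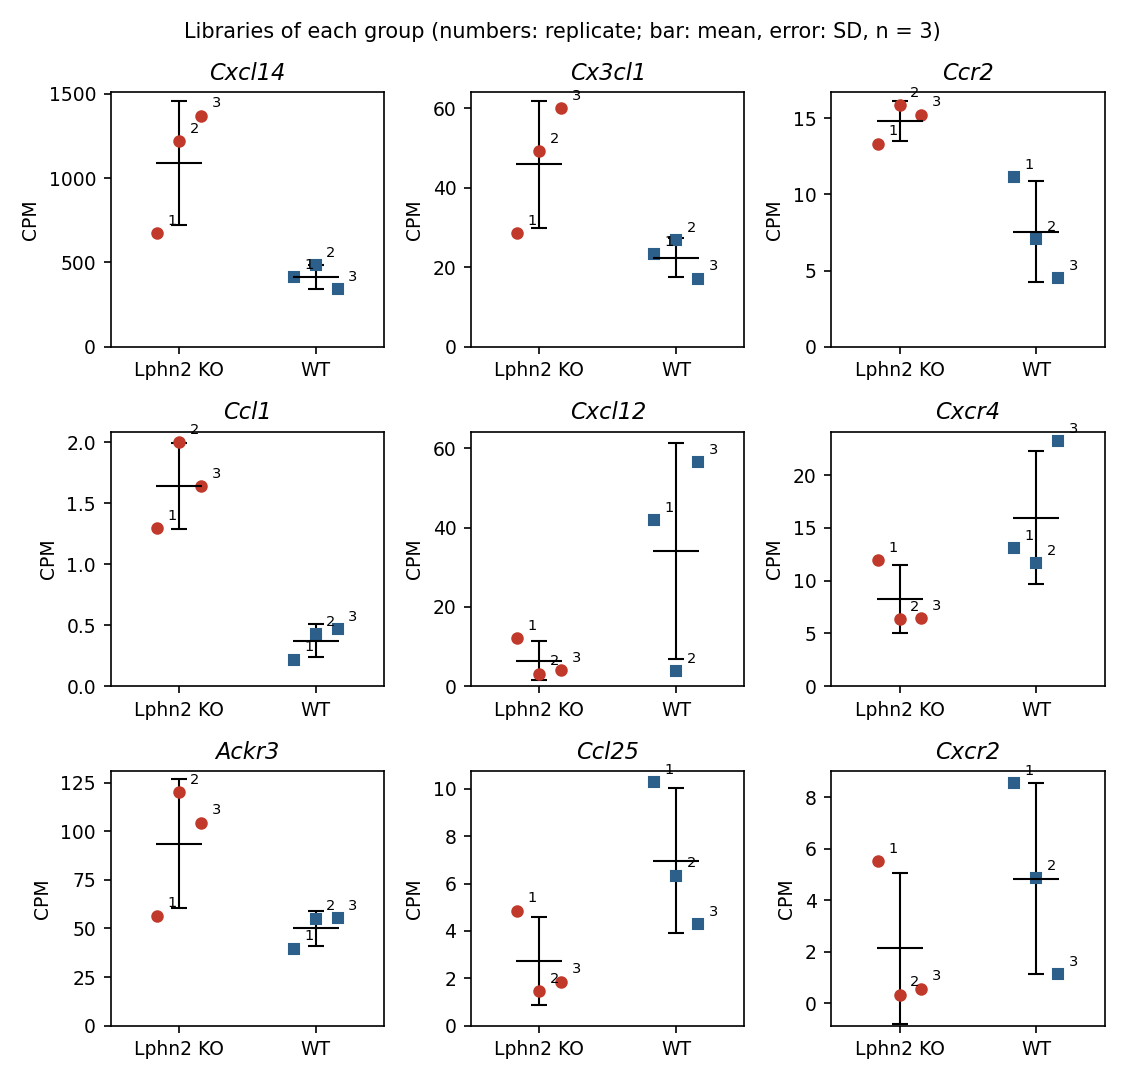
CPM of 9 genes in each library (points numbered by replicate), Lphn2 KO left of WT, with bars at the mean and errors of 1 SD (n = 3 each). Cxcl14, Cx3cl1, Ccr2, Ccl1 and Ackr3 do not overlap between groups, while WT replicate 2 of Cxcl12, at 3.72 CPM, falls among the knockouts.

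Ccr2 is a receptor of monocytes, through which they leave the bone marrow, and lies on chromosome 9, 124101950 to 124113557. It stood at 13.3, 15.9 and 15.3 CPM in Lphn2 KO and at 11.1, 7.07 and 4.49 CPM in WT replicates 1, 2 and 3. It was higher in each knockout than in each WT library, and lowest in WT replicate 3. It missed the threshold, with a log2 fold change of 0.97 ± 0.35 (SE, edgeR adjusted p = 0.263), and did so under each alternative run.

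Several ligands of Ccr2 and other inflammatory CC ligands were read at low levels, while Ccl8 and Ccl6, described below, were higher. Ccl2, a monocyte attractant that binds Ccr2, averaged 2.51 ± 1.02 CPM in Lphn2 KO and 1.47 ± 0.35 CPM in WT libraries (SD, n = 3 each, as for the ligands that follow). Ccl7, which also binds Ccr2, averaged 1.91 ± 1.13 CPM in Lphn2 KO and 1.11 ± 0.18 CPM in WT libraries. Ccl12, a mouse ligand of the same receptor, averaged 1.38 ± 0.80 CPM in Lphn2 KO and 0.64 ± 0.74 CPM in WT libraries. Each of these ligands had knockout libraries on both sides of some WT values. Ccl4, made by activated macrophages and lymphocytes, averaged 2.20 ± 1.28 CPM in Lphn2 KO and 1.26 ± 0.44 CPM in WT libraries. Ccl5, which binds Ccr1 and Ccr3, averaged 1.47 ± 0.73 CPM in Lphn2 KO and 1.23 ± 1.40 CPM in WT libraries. Ccl3, a ligand of Ccr1, had 14 counts in all. The groups of Ccl4 and Ccl5 overlapped as well. The 5 log2 fold changes ran from 0.28 for Ccl5 to 1.095 for Ccl12, with standard errors of 0.51 to 1.03.

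Ccl1, a CC ligand that attracts cells bearing Ccr8, stood at 1.29, 2.00 and 1.64 CPM in Lphn2 KO and at 0.217, 0.427 and 0.470 CPM in WT libraries. These rest on 33, 30 and 23 counts in Lphn2 KO and on 6, 7 and 18 counts in WT. The groups did not overlap, with a log2 fold change of 2.13 ± 0.62 (SE, edgeR adjusted p = 0.200, range over the alternatives 0.0873 to 0.588). Ccr8 itself had 0 counts in every library, which allows up to 0.0784 to 0.214 CPM per library at 3 counts, a limit that covers counting error only. Ccl1 averaged 1.01 CPM over the 6 libraries, just over the mark of 1 CPM.

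Ccl8, a monocyte and eosinophil attractant that also binds Ccr8 in mouse, stood at 6.75, 15.4 and 11.7 CPM in Lphn2 KO and at 11.05, 10.4 and 4.47 CPM in WT libraries. The groups interleaved (log2 fold change 0.38 ± 0.44 SE). Ccl6 and Ccl9 are rodent CC ligands of Ccr1 made by myeloid cells. Ccl6 stood at 4.31, 9.27 and 10.3 CPM in Lphn2 KO and at 15.2, 3.72 and 2.72 CPM in WT libraries, with WT replicate 1 the highest of all. Its log2 fold change of 0.14 became 1.30 without that library. Ccl9 averaged 1.21 ± 0.37 CPM in Lphn2 KO and 1.20 ± 0.72 CPM in WT libraries (SD, n = 3 each). Their receptor Ccr1 had 13 counts in all.

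These CC ligands lie in a stretch of chromosome 11 (82035571 to 83664683) that holds 11 of the members, a grouping taken from the annotation after their values were seen. Of the 11, 9 were expressed, and Ccl11 and Ccl3 were not. The 9 log2 fold changes were all positive, from 0.01 to 2.13 with a median of 0.77, although Ccl6, Ccl5 and Ccl9 turned negative when single libraries were left out. Over all genes tested, 6453 of 13848 log2 fold changes were positive. None of the 9 was called, and of the 9 only Ccl1 lay above WT without overlap, against 12.1% of all genes tested. Of 9 Cxcl ligands on chromosome 5 (90759360 to 95961068) only Cxcl2 was expressed.

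**Figure D3:**
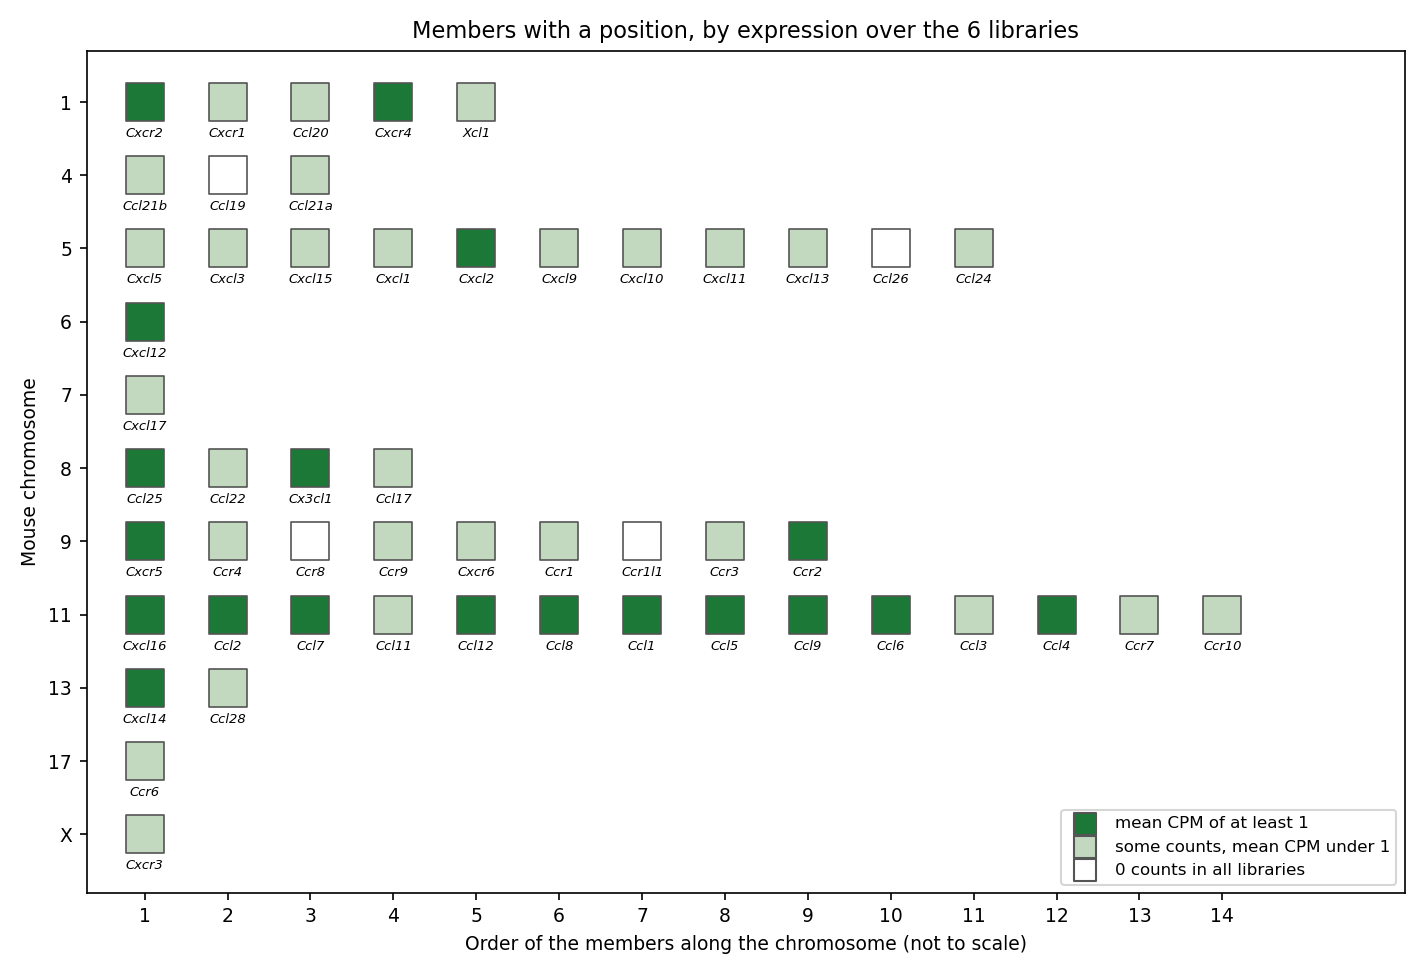
The members described that have a position in GENCODE M21, ordered along each mouse chromosome (not to scale). Dark squares averaged at least 1 CPM over the 6 libraries, pale squares had counts but a lower mean, and white squares had 0 counts, so that 10 of the 14 members on chromosome 11 are dark against 1 of the 11 on chromosome 5.

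Ccl25, which draws thymocyte precursors and gut lymphocytes through Ccr9, averaged 2.73 ± 1.86 CPM in Lphn2 KO, between 1.47 and 4.86 CPM, and 6.97 ± 3.05 CPM in WT libraries, between 4.29 and 10.3 CPM (SD, n = 3 each). The groups overlapped through Lphn2 KO replicate 1 alone (log2 fold change -1.34 ± 0.57 SE, edgeR adjusted p = 0.319, and -2.06 without that library with edgeR adjusted p = 0.0739). All 6 counts of Ccl25 and of Cxcl16 were multiples of 2, and with the counts so divided the log2 fold change of Ccl25 was -1.31. Ccr9 averaged 0.497 CPM over the libraries.

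Cxcr2, the neutrophil receptor for Cxcl1, Cxcl2 and Cxcl5, stood at 5.53, 0.333 and 0.570 CPM in Lphn2 KO and at 8.55, 4.87 and 1.12 CPM in WT libraries. Lphn2 KO replicate 1 lay among the WT values and replicates 2 and 3 below them. The log2 fold change of -1.14 ± 1.12 (SE, edgeR adjusted p = 0.655) became -3.41 without Lphn2 KO replicate 1 (edgeR adjusted p = 0.102, range over the alternatives 0.102 to 0.915). Cxcl2 averaged 0.98 ± 0.61 CPM in Lphn2 KO and 1.58 ± 1.51 CPM in WT libraries (SD, n = 3 each). Cxcr5, which brings B cells to follicles, stood at 4.0, 7.87 and 6.27 CPM in Lphn2 KO and at 3.95, 4.39 and 7.47 CPM in WT libraries. The groups interleaved. Cxcr5 averaged 6.05 ± 1.94 CPM in Lphn2 KO and 5.27 ± 1.92 CPM in WT libraries (SD, n = 3 each), a log2 fold change of 0.19 ± 0.40 (SE). Its ligand Cxcl13 had 14 counts in all.

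**Figure D4:**
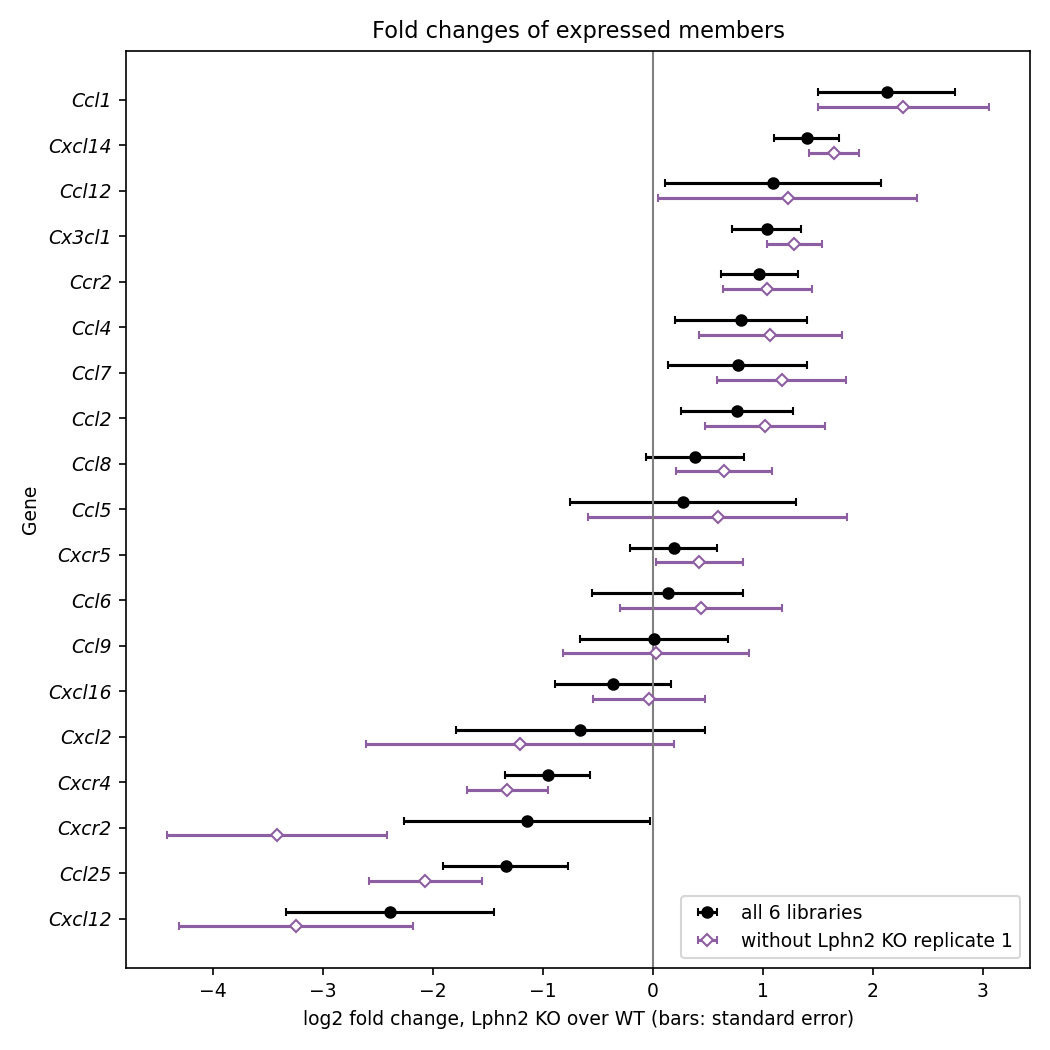
Log2 fold change of Lphn2 KO over WT with its standard error for the expressed members described, from all 6 libraries (filled circles) and without Lphn2 KO replicate 1 (open diamonds). Values run from 2.13 for Ccl1 to -2.39 for Cxcl12, and the largest shift between the fits is that of Cxcr2, -1.14 against -3.41.

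Nearest under the mark of 1 CPM were Ccr7 at 0.960, Cxcl10 at 0.837 and Cxcl1 at 0.817 CPM over the 6 libraries, and just inside it were Ccl1 and Ccl12, each at 1.01 CPM. The interferon-induced ligands Cxcl9, Cxcl10 and Cxcl11 and their receptor Cxcr3, found on T and natural killer cells, were all under 1 CPM. Cxcl10 averaged 0.794 ± 0.371 CPM in Lphn2 KO and 0.879 ± 0.223 CPM in WT libraries (SD, n = 3 each). Cxcl9, Cxcr3 and Cxcl11 had 27, 21 and 12 counts over all libraries, and Cxcl11 is annotated as a polymorphic pseudogene in GENCODE M21. Xcl1, a ligand made by natural killer cells, had 19, 17 and 21 counts in Lphn2 KO and 22, 7 and 0 counts in WT libraries.

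Among members under 1 CPM, the lymphoid homing ligand Ccl21a had 0, 0 and 1 counts in Lphn2 KO and 59, 1 and 44 counts in WT libraries. Ccl21a shared all its counts with the predicted gene Gm1987. Ccl21b and Ccl21c shared all their counts with each other and with 3 predicted genes. The counts of Ccl21a, Ccl21b and Ccl21c therefore cannot be assigned to single copies. Of the 25 members with counts too low to test, Ccl24, Cxcl17 and Cxcl15 had a lower CPM in every Lphn2 KO than in every WT library. The share was 9.39% over all genes tested, and was not taken over genes this low. Ccl24, an eosinophil attractant, had 6, 0 and 2 counts in Lphn2 KO and 13, 7 and 31 counts in WT libraries. Cxcl17, a mucosal chemokine, had 4, 0 and 2 counts in Lphn2 KO and 5, 5 and 17 counts in WT libraries. Cxcl15 had 0 counts in Lphn2 KO and 2, 1 and 3 counts in WT libraries, so these differences rest on few counts. Ccr6, the receptor of Ccl20, had 21 counts, all in Lphn2 KO replicate 1, and Ccl20 had 8 counts in all. Ccl17 and Ccl22, ligands of the T cell receptor Ccr4, had 43 and 9 counts in all, and Ccr4 had 1. Ccl28 had 4 counts and its receptor Ccr10 had 37. The eosinophil receptor Ccr3 had 36 counts and its ligand Ccl11 had 13, all of them in WT replicate 3. Among neutrophil genes, Cxcl5 had 34, Cxcl3 had 2 and Cxcr1 had 1. The silent genes were Ccl19, Ccl26, Ccr1l1 and Ccr8. Of the 30 low members, 5 had enough counts to be tested and 0 were called by edgeR, with 0 at an unadjusted p under 0.05.

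The atypical receptors bind chemokines without driving migration. Besides Ackr3, Ackr4, which takes up Ccl19, Ccl21 and Ccl25, stood at 37.5, 57.5 and 42.2 CPM in Lphn2 KO and at 27.4, 43.1 and 13.1 CPM in WT libraries, with overlap (log2 fold change 0.72 ± 0.41 SE, edgeR adjusted p = 0.447). Ackr1, the Duffy receptor of venules and red cells, had a log2 fold change of -0.14 ± 0.59 (SE). That of Ackr2, a scavenger of inflammatory CC ligands, was -0.80 ± 0.65 (SE), and that of Ccrl2, which holds chemerin, was -0.56 ± 0.83 (SE). The groups of these 3 overlapped.

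Other genes of the chemokine pathway were taken from a list of 61 symbols in the tables. The list was chosen with earlier results of these data known, so its counts are no independent test. Of the 61 genes, 57 were tested. None was called (edgeR), 25 had an unadjusted p under 0.05 on the higher and 2 on the lower side, and 20 lay above WT in every Lphn2 KO library. Over all genes tested, 8.68% were higher and 6.86% lower at that unadjusted p, and 12.1% lay above WT without overlap. The median log2 fold change was 0.52, with 40 positive and 17 negative. Of 32 genes that carry or switch off signals downstream of the receptors, 26 had a positive value and 13 lay above WT without overlap, against the same 12.1% of all genes. Plcb3, a phospholipase C driven by G proteins, stood at 37.3, 55.3 and 59.4 CPM in Lphn2 KO and at 28.5, 19.9 and 25.1 CPM in WT libraries (log2 fold change 1.05 ± 0.24 SE, edgeR adjusted p = 0.170). Vav1, which activates Rac in leukocytes, stood at 12.5, 14.8 and 13.3 CPM in Lphn2 KO and at 7.93, 6.22 and 6.51 CPM in WT libraries. Adrbk1, the kinase GRK2 that switches off active receptors, stood at 117, 161 and 132 CPM in Lphn2 KO and at 74.4, 94.6 and 80.5 CPM in WT libraries.

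Of 14 inducers and other regulators of chemokine transcription, inhibitors included, 12 were tested, with 10 positive values. Of these, 6 lay above WT without overlap, against 12.1% of all genes tested. Nfkbia, the inhibitor and target of NF-kappaB, stood at 205, 401 and 355 CPM in Lphn2 KO and at 162, 155 and 121 CPM in WT libraries. Irf8, needed for monocytes and dendritic cells, stood at 160, 279 and 208 CPM in Lphn2 KO and at 77.9, 129 and 56.2 CPM in WT libraries. Irf7, an interferon regulator, stood at 49.5, 78.0 and 74.6 CPM in Lphn2 KO and at 33.0, 38.8 and 23.1 CPM in WT libraries. All 3 lay highest in Lphn2 KO replicates 2 and 3. Their edgeR adjusted p lay between 0.173 and 0.184. DESeq2 called these 3 genes as well as Plcb3, Vav1 and Adrbk1 higher, with adjusted p between 0.00580 for Nfkbia and 0.0277 for Adrbk1. It called 3.49% of all genes higher. These 6 genes were picked for a small edgeR p in the same libraries, so their DESeq2 calls are not separate support. Without Lphn2 KO replicate 1, edgeR called Nfkbia (adjusted p = 0.0270), Plcb3 (0.0313) and Irf7 (0.0465) higher. Over the alternatives the adjusted p of each of the 6 reached up to 0.574. Ifng, the gene of interferon gamma, had 0 counts in every library. The only pathway gene lower without overlap was the platelet chemokine Ppbp, named after its values were seen, at 0.0784 to 0.428 CPM in Lphn2 KO and 0.688 to 2.90 CPM in WT libraries.

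Among the leukocyte marker lists, the summed natural killer and neutrophil markers did not overlap between the groups, and the macrophage and dendritic cell sums did. The 8 natural killer markers summed to 48.2 to 92.2 CPM in Lphn2 KO and to 19.7 to 42.7 CPM in WT libraries, all 8 with a positive log2 fold change and 3 above WT without overlap, against 12.1% of all genes tested. Most of the sum was Eomes and Klrb1c. Eomes nearly met between the groups, at 25.3 CPM in Lphn2 KO replicate 1 and 25.0 CPM in WT replicate 2. The groups of Ncr1, Klrk1, Klra8, Itga2 and Cd7 overlapped. The 10 macrophage markers summed to 277 to 317 CPM in Lphn2 KO and to 250 to 582 CPM in WT libraries, with 8 positive. The other 2 were negative, among them Csf1r, the macrophage growth factor receptor and the marker with much of the sum. Csf1r stood at 156, 58.3 and 116 CPM in Lphn2 KO and at 291, 442 and 166 CPM in WT libraries, lower in each knockout (log2 fold change -1.45 ± 0.45 SE, edgeR adjusted p = 0.222). The log2 fold change of Mrc1, the mannose receptor, was -1.35 ± 0.50 (SE), with overlap. The 6 dendritic cell markers summed to 4.92 to 10.2 CPM in Lphn2 KO and to 6.22 to 13.3 CPM in WT libraries.

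The neutrophil list summed to 2142 to 3846 CPM in Lphn2 KO and to 822 to 1429 CPM in WT libraries, nearly all of it S100a8. S100a9 and Mpo were lower in every knockout than in every WT library. Elane was at 0 in all libraries but WT replicate 3, at 0.105 CPM, and the groups of Csf3r and Retnlg overlapped. T and B cell markers were near 0, at up to 0.499 and 0.667 CPM in Lphn2 KO and up to 0.305 and 1.04 CPM in WT libraries, with Cd8a and Cd79a at 0. Endothelial markers summed to 1886 to 2323 CPM in Lphn2 KO and to 1142 to 2067 CPM in WT libraries, with 8 of 8 positive. The 10 decidual markers summed to 6886 to 11980 CPM in Lphn2 KO and to 19408 to 35395 CPM in WT libraries, in WT mostly Prl8a2. Yet 7 of them had positive values. Of the 10, 6 lay above and 3 below WT without overlap, against 12.1% and 9.39% of all genes tested. Trophoblast markers summed to 51.2 to 3548 CPM in Lphn2 KO, highest in replicate 1, and to 1351 to 5789 CPM in WT libraries. Most of that sum was Prl3d1 and Prl2c2, and all 8 trophoblast markers tested had negative log2 fold changes. Yolk sac endoderm markers lay at 25.3 to 192 CPM in Lphn2 KO and 412 to 668 CPM in WT libraries, and primitive erythroid markers at 56.2 to 748 CPM in Lphn2 KO and 1474 to 2217 CPM in WT libraries. The part of these lists in the values of Cxcl14, Cx3cl1, Ccr2 and Ccl1 was not tested.

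**Figure D5:**
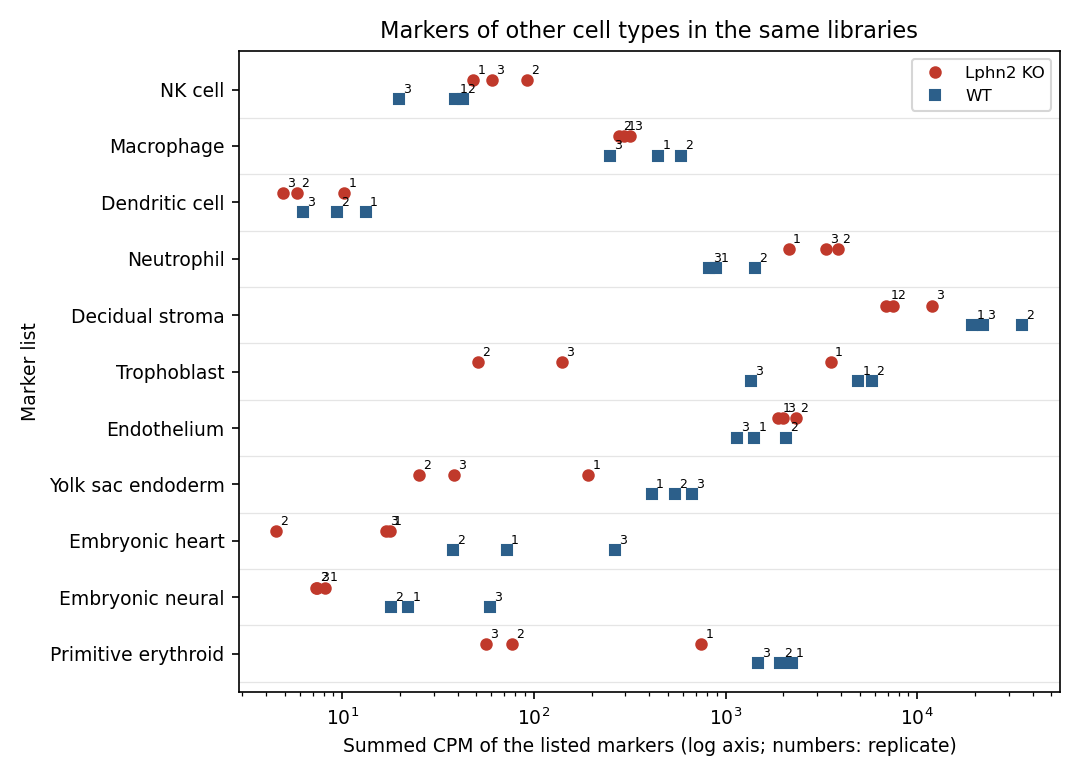
Summed CPM of each marker list (log axis) in each library, numbered by replicate, Lphn2 KO (red circles) above WT (blue squares). Natural killer sums lie higher in Lphn2 KO (48.2 to 92.2 CPM) than in WT (19.7 to 42.7 CPM), heart, neural, yolk sac, erythroid and decidual sums lie lower, and T and B cell lists, near 0, are not drawn. The decidual sum is mostly Prl8a2 in WT, and 7 of its 10 markers have positive log2 fold changes.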

How the data were processed

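The authors deposited raw counts for each gene symbol in a table of its own for every sample. Bowtie2, edgeR and build mm10 are named in the submitters' processing notes. Not given in the sources used here are the versions and roles of these tools, the annotation, the counting program and its use of strand, so reads of overlapping or near-identical genes may be misplaced. The 13848 genes that passed filterByExpr at a minimum count of 10 were scaled by TMM (edgeR 4.0.16). Lphn2 KO was compared with WT by the edgeR quasi-likelihood test with no covariate, Benjamini-Hochberg adjustment and a threshold of 0.05. DESeq2 1.42.0 and voom of limma 3.58.1 (R 4.3.3), other scalings and filters, a replicate block, common divisors removed and each library left out were alternatives. The fits were tested on simulated data with the same relative variation set for every gene and no outlying library. That test does not cover the wider spread of these libraries.

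The members, pathway and marker lists were chosen with earlier results of these data known. One gene is not reported here. The other expressed members are all named, and values of each library are given for those without overlap and the 8 with the highest mean, as well as for Cxcr2, Cx3cr1, Ackr3 and Ackr4. Pathway genes are the 6 of smallest p without overlap and with at least 5 CPM in each direction, of which none was found on the lower side. Positions come from GENCODE M21 (mm10), which held 53 of the 54 symbols. Depth limits genes with few counts, whose counting error is large. Figures used matplotlib 3.10.9.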

Additional observations from a re-analysis of the deposited data

How the results depend on the processing

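Over the 20 expressed members, 280 of 290 fold changes under the alternatives kept their sign, and 15 members kept it under every alternative run. Scaling by size factors, upper quartile or library size, both other filters, limma-voom and the removal of common divisors left every count of calls within 1.5 times. DESeq2 called 2 members higher and 1 lower, and 470 and 387 of all genes. Leaving out 1 library gave 0 to 2 members higher, and 0 to 252 genes higher and 0 to 466 lower. It gave 0 to 3 expressed members below WT without overlap, a count for which no share of all genes was taken. The upper ends came without Lphn2 KO replicate 1. The cause was not tested. With the replicate number as a block, 0 members were called and 0 of all genes were lower, against 7. Same-numbered libraries had deviations with r of 0.178, -0.0469 and 0.0742. Lphn2 KO replicates 1 and 3 correlated best with the WT library of the same number, and replicate 2 with WT replicate 3. These weak values cannot decide whether the numbers pair samples.

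Signs turned for Cxcl2 with limma-voom (1.004) and for Ackr1 with the replicate block (0.00054). With 1 library left out, the log2 fold change ranged from -0.27 to 1.30 for Ccl6, -0.29 to 1.73 for Ccl5, -0.38 to 0.53 for Ccl9, -1.23 to 0.29 for Cxcl2, -0.0296 to 0.52 for Cxcr5 and -0.46 to 0.57 for Ackr1. The sample code of WT replicate 1 begins with another number than the other 5, of unstated meaning. Without this library edgeR called 0 members. Members under about 2 CPM rest on few counts.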
